A study of Mus musculus with 24 samples.

Results

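The mRNAs described here encode the metabotropic glutamate receptor mGluR5 (Grm5) and the scaffold proteins that hold it at the excitatory synapse, the Homer proteins (Homer1, Homer2, Homer3), the Shank proteins (Shank1, Shank2, Shank3) and the Dlgap proteins (Dlgap1, Dlgap2, Dlgap4). They were taken as every probe set of the Affymetrix Mouse 430 2.0 array whose only gene symbol in the platform annotation is 1 of these 10 names. This gave 23 of 45037 probe sets, for 9 of the 10 genes. Shank2 was matched by no probe set under this rule. Dlgap3 is not 1 of the 10 names and was counted among the binding partners described further on. The genes lie on chromosome 7 (Grm5, Homer2, Shank1, Shank2), 13 (Homer1), 8 (Homer3, Dlgap2), 15 (Shank3), 17 (Dlgap1) and 2 (Dlgap4), by the RefSeq annotation of the mouse genome.

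mGluR5 is a receptor coupled to Gq proteins that raises calcium through phospholipase C and drives protein synthesis near the synapse, and the mGluR theory of fragile X holds that this synthesis runs without its normal brake when FMRP, an RNA-binding protein, is missing. Long Homer proteins bind the tail of the receptor and cross-link it to Shank, and a short, activity-induced Homer1 form lacks the part needed for cross-linking. Shank in turn binds the Dlgap proteins, which bind PSD-95, so that these families form a connected scaffold in the postsynaptic density.

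The tissue was cerebral cortex, dissected from male mice of the FVB strain on postnatal day 7. The 4 groups were wild type (WT) and Fmr1 KO, which lacks functional Fmr1, the gene of FMRP, each measured as polyribosomal and as total RNA, with 6 arrays per group. Each replicate was a lysate pooled from 2 mice, so single animals were not resolved, and the knockout was present in every cell of the animal. Polyribosomal RNA was pooled from gradient fractions 10 to 13 of 16, with mRNAs on 6 or more ribosomes, and total RNA was the 20% of the same cleared lysate kept back from the gradient. A higher polyribosomal value therefore means a larger share of an mRNA in the heavy fractions relative to other mRNAs, and a lower one can also come from mRNA on fewer ribosomes.

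Fmr1 fell in the Fmr1 KO arrays as the labels state, by 3.71 on the log2 scale in polyribosomal and by 3.28 in total RNA at its brightest probe set (exact permutation test, two-sided, p = 0.00216 for each, the smallest that 924 splits allow). Some signal remained there, with Fmr1 KO means of 6.19 in polyribosomal and 6.38 in total RNA. Array medians were 3.17 to 3.20 log2 units, and arrays of a group correlated across probe sets at r = 0.991 to 0.998. Markers of excitatory neurons, interneurons, astrocytes and the oligodendrocyte lineage with a probe set all reached a log2 value of 4 on every array, while the endothelial and blood markers were dim, with summed log2 values of at most 5.53 and 3.44. Summed microglial markers were lower in polyribosomal than in total RNA, at 7.22 to 7.59 against 7.78 to 8.19 in WT and 7.20 to 7.46 against 7.54 to 8.02 in Fmr1 KO. This came mainly from Aif1, with means of 7.09 in total and 5.77 in polyribosomal RNA of WT, while C1qb stood at 6.07 and 6.08, Csf1r was slightly lower and C1qa and Cx3cr1 were slightly higher in polyribosomal RNA. Of the choroid plexus markers, Kl and Folr1 stayed under 4 on every array, and Ttr varied widely between lysates, with means of 8.93 in WT and 6.92 in Fmr1 KO total RNA and of 9.78 and 7.42 in polyribosomal RNA. Of the striatal markers with a probe set, Drd1 reached 4 on 24 arrays, Ppp1r1b on 23 and Drd2 on 0. Ppp1r1b had means of 4.83 in WT and 5.09 in Fmr1 KO total RNA, and of 5.66 and 5.98 in polyribosomal RNA. Of the markers of cerebellar granule neurons, Neurod1 reached 4 on 24 arrays, and Gabra6 and Pax6 on 0. The part of all these markers in the results was not tested.

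Of the 23 probe sets, 17 were bright enough to be tested in all comparisons, meaning that 6 or more of the arrays compared had a log2 value of 4 or more. They covered 7 genes, Grm5, Homer1, Homer2, Shank3, Dlgap1, Dlgap2 and Dlgap4. The single probe sets of Homer3, at 1.91 to 2.30 over the 24 arrays, and of Shank1, at 2.31 to 2.80, stayed under the limit on every array. So did 1425671_at of Homer1, 1436110_at of Homer2, and 1440639_at and 1443508_at of Dlgap1, which are probe sets of genes with brighter ones. A dim probe set gives no statement about its mRNA, since probe sets differ in how well they bind. Where a gene is named without a probe set, the value is that of its brightest one, and levels are not compared between probe sets.

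**Figure D1:**
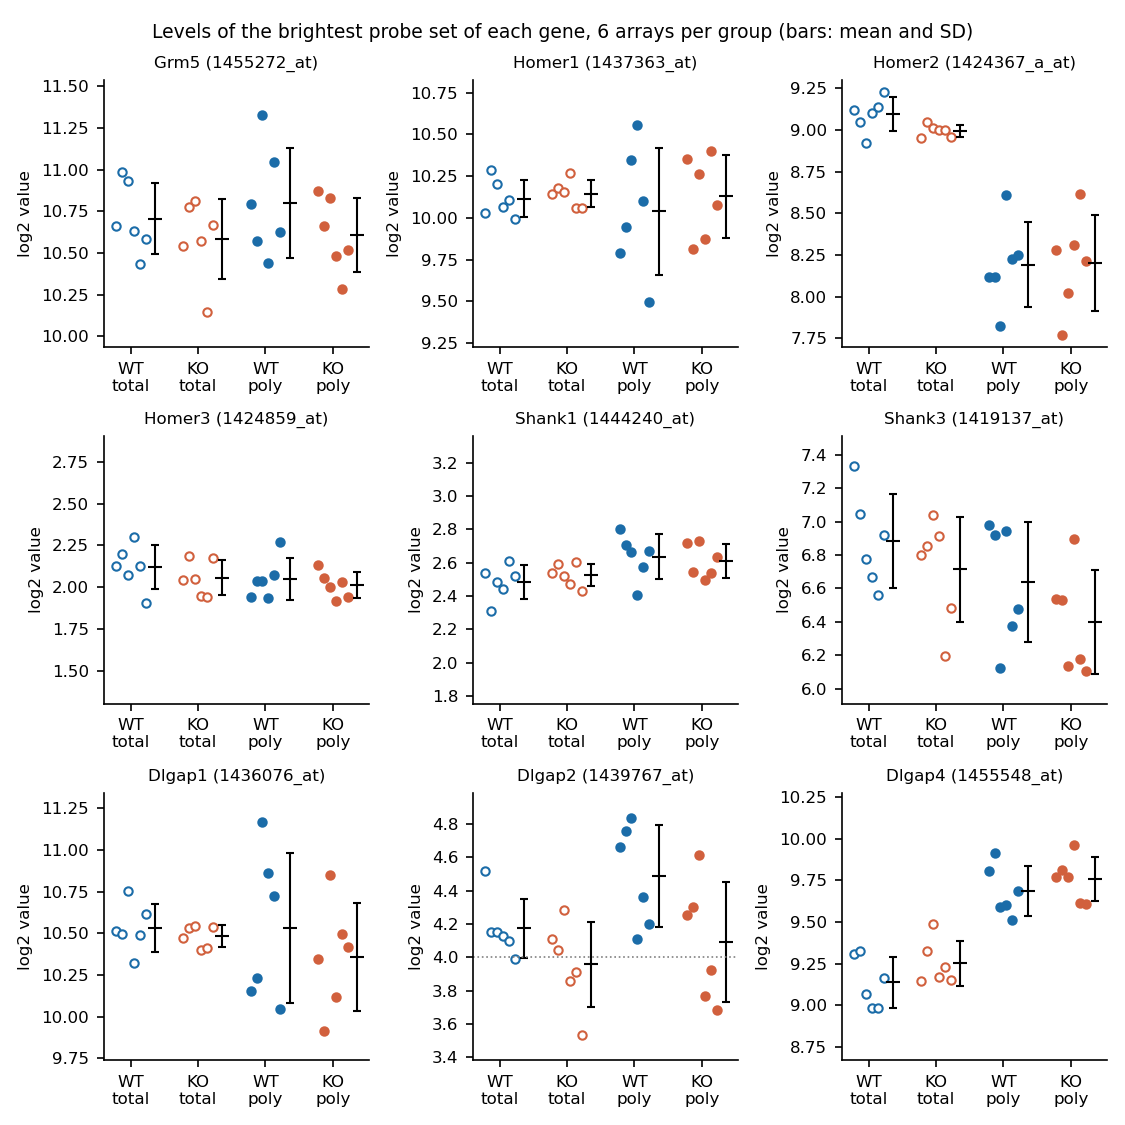
Log2 values of the brightest probe set of each of the 9 genes in the 4 groups. Each point is 1 array, open for total and filled for polyribosomal (poly) RNA, the black bars are the mean and SD of 6 arrays, and the dotted line marks the limit of 4 where it falls inside a panel. Homer2 stands lower and Dlgap4 higher in polyribosomal than in total RNA with no overlap in either genotype, while WT and Fmr1 KO arrays overlap in every panel.

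The first question was whether these mRNAs differ between Fmr1 KO and WT cortex. None of the 17 probe sets was called in polyribosomal RNA (limma, adjusted p = 0.9999 for each), where 0% of all 17687 probe sets tested were called higher and 0.017% lower (for genes, 0% and 0.0103%). None was called in total RNA either (adjusted p from 0.9641 to 0.9985), where 0.0056% of 17850 were called higher and 0.0336% lower (for genes, 0.0103% and 0.031%). An unadjusted p under 0.05 was reached by 1 of the 17 in polyribosomal and 2 in total RNA, against 473 and 892 of all probe sets tested. With the replicate number as a block it was reached by 3 and 4 of the 17. In polyribosomal RNA these were Dlgap2, Shank3 and 1456119_at of Grm5. In total RNA they were Dlgap2, 1456119_at of Grm5, 1457671_at of Homer2 and 1429105_at of Dlgap1. Again none was called (limma adjusted p of at least 0.9678 and 0.5115). The share of all probe sets that reached it with the block was not counted, so the rise cannot be set against the array. WT and Fmr1 KO arrays overlapped at every one of the 17 in both RNA kinds. In bulk tissue, fewer cells of a type and less RNA per cell cannot be told apart.

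Grm5 had a log2 level of 10.44 to 11.33 (median 10.71) in WT polyribosomal RNA and 10.28 to 10.87 (median 10.59) in Fmr1 KO. The difference, Fmr1 KO minus WT, was -0.19 with a 95% interval from -0.51 to 0.13. In total RNA the levels were 10.44 to 10.98 (median 10.65) in WT and 10.15 to 10.81 (median 10.62) in Fmr1 KO, a difference of -0.12 (interval -0.37 to 0.13). The Fmr1 KO arrays lay within the WT range except for 1 low array in each RNA kind. The second Grm5 probe set, 1456119_at, stood at -0.26 (SE 0.16) in polyribosomal and -0.17 (SE 0.069) in total RNA. In total RNA its Fmr1 KO value was below that of the WT array of the same number in 6 of 6 cases, but it did not pass (limma adjusted p = 0.9641), and 3 Fmr1 KO arrays lay below all WT arrays.

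Homer1, the receptor's main cross-linker, ranged from 9.50 to 10.55 (median 10.02) in WT and from 9.81 to 10.40 (median 10.17) in Fmr1 KO polyribosomal RNA. The difference was 0.09 (interval -0.26 to 0.45), and in total RNA it was 0.03 (interval -0.10 to 0.16). The Fmr1 KO range lay inside the WT range in polyribosomal RNA, so neither genotype stood apart. The other 4 Homer1 probe sets tested gave 0.0035 to 0.19 in polyribosomal and -0.10 to 0.08 in total RNA.

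Homer2, a family member with the same receptor-binding domain, ranged from 7.83 to 8.61 (median 8.17) in WT and from 7.77 to 8.62 (median 8.25) in Fmr1 KO polyribosomal RNA, a difference of 0.01 (interval -0.30 to 0.32). In total RNA it ranged from 8.92 to 9.23 (median 9.11) and from 8.95 to 9.05 (median 8.998), a difference of -0.10 (interval -0.22 to 0.02). All Fmr1 KO arrays fell inside the WT range in total RNA. Its second probe set, 1457671_at, stood at 0.04 in polyribosomal and -0.20 in total RNA, and the latter did not pass (limma adjusted p = 0.9819). These probe sets of Grm5 and Homer2 were the ones with an unadjusted p under 0.05 in total RNA without the block.

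Shank3, the scaffold gene lost in Phelan-McDermid syndrome, ranged from 6.12 to 6.98 (median 6.70) in WT and from 6.11 to 6.90 (median 6.35) in Fmr1 KO polyribosomal RNA. The difference was -0.24 (interval -0.61 to 0.13), and it was -0.17 (interval -0.49 to 0.16) in total RNA. The ranges covered nearly the same span, and 5 of 6 Fmr1 KO arrays were below the WT array of the same number in polyribosomal RNA.

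Among the Dlgap genes, whose proteins link Shank to PSD-95, Dlgap1 ranged from 10.05 to 11.16 (median 10.48) in WT and from 9.92 to 10.85 (median 10.38) in Fmr1 KO polyribosomal RNA. The difference was -0.17 (interval -0.59 to 0.24), and in total RNA it was -0.05 (interval -0.19 to 0.10). Dlgap4 ranged from 9.51 to 9.91 (median 9.65) and from 9.61 to 9.96 (median 9.77), a difference of 0.07 (interval -0.14 to 0.28), and in total RNA it stood at 0.11 (interval -0.06 to 0.29). For both genes the genotypes overlapped over most of their range.

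Dlgap2 gave the largest genotype value of the 17 in polyribosomal RNA. Its arrays stood at 4.66, 4.75, 4.83, 4.11, 4.36 and 4.20 for WT numbers 1 to 6, and at 4.26, 4.30, 4.61, 3.77, 3.93 and 3.69 for Fmr1 KO. Every Fmr1 KO array was below the WT array of the same number and 3 were below all WT arrays, yet the ranges overlapped. The difference was -0.40 (SE 0.17, interval -0.76 to -0.03, limma adjusted p = 0.9999), and it was the one with an unadjusted p under 0.05 in polyribosomal RNA without the block. This mRNA was close to the limit of 4, which was reached by 6 WT and 3 Fmr1 KO polyribosomal arrays, so it could pass the filter through WT alone. In total RNA the Fmr1 KO mean of 3.96 lay below the limit and the WT mean was 4.17, a difference of -0.21 (interval -0.46 to 0.03), with Fmr1 KO lower in 5 of 6 same-numbered pairs.

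**Figure D2:**
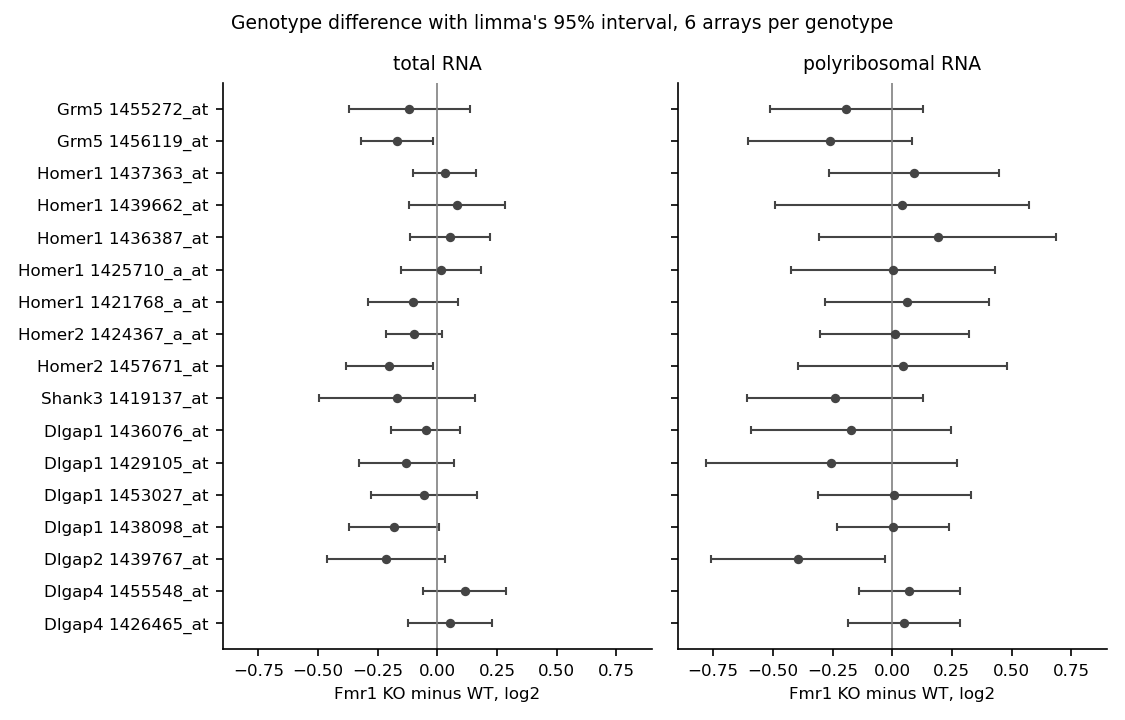
Log2 difference Fmr1 KO minus WT of the 17 probe sets tested, in total RNA (left) and polyribosomal RNA (right). Points are limma estimates and bars their 95% intervals, from 6 arrays per genotype. Intervals are wider in polyribosomal RNA, and the interval of Dlgap2 there ends at -0.03.

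The median difference over the 7 genes was -0.17 in polyribosomal RNA, where the median of all 9664 genes tested was 0.01, and -0.10 in total RNA, where that of 9690 genes was -0.01. In polyribosomal RNA 3 of the 7 genes had values above 0 and 4 below, where 53.79% of all genes were above. In total RNA 2 were above and 5 below, where 44.56% of all genes were above. Over the 17 probe sets the polyribosomal median was 0.0089, beside 0.0075 for all probe sets, with 11 above 0 and 6 below. In total RNA it was -0.0987 beside -0.0131, with 6 above and 11 below. None of the individual values passed the test, and these medians describe the 7 genes and their probe sets only.

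The next question was how these mRNAs were distributed between the heavy polyribosomes and the lysate. With 1 probe set per gene, Dlgap4 and Dlgap2 rose and Homer2 fell in polyribosomal RNA of WT, and the other 4 genes did not pass. This is 2 of 7 higher and 1 of 7 lower, where 37.5% of 9725 genes were called higher and 28.4% lower. In Fmr1 KO, Dlgap4 rose, Homer2 and Shank3 fell and 4 did not pass, where 38.7% of 9700 genes were called higher and 28.2% lower. The median of the 7 genes was -0.01 in Fmr1 KO, where that of all genes was 0.09. Over all 17 probe sets, 3 were higher and 3 lower in WT, where 36.2% and 29.1% of 17893 were, and 2 were higher and 5 lower in Fmr1 KO, where 37.2% and 28.7% of 17854 were. Calls were thus no more frequent among these genes than across the array, and what follows is about single genes.

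Grm5 did not differ past the threshold between the RNA kinds. The polyribosomal minus total difference of a lysate went from -0.41 to 0.61 (median 0.09) in WT and from -0.15 to 0.33 (median -0.03) in Fmr1 KO. The mean was 0.10 (SE 0.13, limma adjusted p = 0.520) in WT and 0.02 (SE 0.087, adjusted p = 0.840) in Fmr1 KO. About as many lysates were above 0 as below it, with 4 of 6 above in WT and 3 of 6 in Fmr1 KO. The second Grm5 probe set gave 0.12 and 0.03, and neither passed.

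Homer1 gave different answers at different probe sets. Its brightest, 1437363_at, had lysate differences from -0.50 to 0.49 (median -0.13) in WT and from -0.40 to 0.34 (median 0.06) in Fmr1 KO, with means of -0.08 (adjusted p = 0.602) and -0.01 (adjusted p = 0.914). Probe set 1436387_at was lower in polyribosomal RNA in every lysate, by -1.37 to -0.12 (median -0.84) in WT and -1.64 to -0.10 (median -0.59) in Fmr1 KO. It fell by 0.81 (SE 0.13, limma adjusted p = 0.0003004) and by 0.67 (SE 0.16, adjusted p = 0.00363).

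In each lysate 1436387_at was further down than 1437363_at, by -0.73 ± 0.26 (SD, n = 6) on average in WT. In Fmr1 KO the distance was -0.65 ± 0.38 (SD, n = 6). This pair of probe sets was chosen after its values were seen, so the distance is given with no test. Which Homer1 transcripts each probe set detects was not analysed here.

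A further Homer1 probe set, 1439662_at, lay between them. It gave -0.40 in WT (adjusted p = 0.111) and fell by 0.45 in Fmr1 KO (adjusted p = 0.0206). That call was lost without the number 2 lysate (-0.28, adjusted p = 0.0538) or the number 4 lysate (-0.40, adjusted p = 0.0611), and in WT the value passed without number 4 (-0.61, adjusted p = 0.0190). The remaining 2, 1425710_a_at and 1421768_a_at, had values above 0 in both genotypes, 0.21 and 0.20 for the former and 0.12 and 0.28 for the latter, and did not pass. The last of these passed in Fmr1 KO without number 2 (0.37, adjusted p = 0.0439).

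Homer2 was the member furthest below its total level. Its polyribosomal minus total differences ran from -1.10 to -0.49 (median -0.95) over the WT lysates and from -1.28 to -0.38 (median -0.72) over the Fmr1 KO lysates. All 12 lysates were below 0, and no polyribosomal array reached the lowest total array of its genotype. It fell by 0.90 in WT (SE 0.094, 1.87-fold, limma adjusted p = 9.64e-06) and by 0.79 in Fmr1 KO (SE 0.11, 1.73-fold, adjusted p = 6.469e-05). Of all genes, 90.4% in WT and 89.3% in Fmr1 KO had a higher value. The second Homer2 probe set, 1457671_at, fell by 1.22 (2.33-fold, adjusted p = 1.084e-05) and by 0.97 (1.96-fold, adjusted p = 5.378e-05), again in all lysates. Both probe sets kept their call under every alternative that tested them.

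Shank3 had differences of -0.36, -0.13, -0.66, 0.28, -0.18 and -0.44 in WT lysates 1 to 6, and of -0.27, -0.32, -0.90, -0.02, -0.02 and -0.38 in Fmr1 KO. Lysate 3 was the lowest and lysate 4 among the highest in each genotype. The mean was -0.25 in WT (SE 0.11, adjusted p = 0.0773), and it fell by 0.32 in Fmr1 KO (SE 0.11, adjusted p = 0.0267). The Fmr1 KO call was lost without number 3 (-0.20, adjusted p = 0.0869) or number 6 (-0.31, adjusted p = 0.0670), and with no replicate block (adjusted p = 0.0938), and WT passed without number 4 (-0.35, adjusted p = 0.00901). The call in 1 genotype and not the other therefore shows no difference between them, which is tested further on.

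Dlgap1 did not differ past the threshold at its brightest probe set, with mean levels of 10.53 in both RNA kinds of WT (interval of the difference -0.32 to 0.32) and a difference of -0.12 in Fmr1 KO (adjusted p = 0.340). Its lysates went from -0.56 to 0.54 in WT, so single lysates moved far in both directions. Probe sets 1429105_at and 1453027_at did not pass either, with 0.05 and -0.19 in WT and -0.07 and -0.13 in Fmr1 KO. The dimmest one tested, 1438098_at, rose by 0.29 in WT (adjusted p = 0.0107) and by 0.47 in Fmr1 KO (adjusted p = 0.0005239), higher in 6 of 6 lysates of each genotype. Its distance from the brightest probe set was 0.29 ± 0.40 (SD, n = 6) in WT and reached 0.59 ± 0.43 (SD, n = 6) in Fmr1 KO, again with no test.

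Dlgap2 had differences of 0.14, 0.60, 0.68, -0.02, 0.26 and 0.21 in WT lysates 1 to 6 and of 0.15, 0.26, 0.32, -0.09, 0.01 and 0.15 in Fmr1 KO. Lysates 2 and 3 were the highest and lysate 4 was the lowest in both. It rose by 0.31 in WT (SE 0.11, adjusted p = 0.0211) and stood at 0.13 in Fmr1 KO (SE 0.083, adjusted p = 0.175). The limit of 4 was reached by 5 total and 6 polyribosomal arrays of WT, but by only 3 of each in Fmr1 KO. The Fmr1 KO value is therefore one near the limit. The WT call was lost without number 2 (0.26, adjusted p = 0.0742) or number 3 (0.24, adjusted p = 0.0824).

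By the brightest probe set of each gene, Dlgap4 was the member most enriched in polyribosomal RNA, and its WT lysates were the most alike. The differences were 0.50, 0.58, 0.53, 0.62, 0.53 and 0.52 in WT lysates 1 to 6 and 0.62, 0.49, 0.28, 0.79, 0.38 and 0.46 in Fmr1 KO. Each polyribosomal array was above every total array of its genotype. It rose by 0.55 in WT (SE 0.076, 1.46-fold, adjusted p = 7.751e-05) and by 0.50 in Fmr1 KO (SE 0.087, 1.42-fold, adjusted p = 0.0003281), higher than 83.9% and 80.1% of all genes. The second Dlgap4 probe set, 1426465_at, stood at 0.05 and 0.04 and did not pass. It was below the brighter one in every lysate, with a distance of -0.50 ± 0.18 (SD, n = 6) in WT and one of -0.46 ± 0.20 (SD, n = 6) in Fmr1 KO, for a pair likewise chosen after its values were seen. As the mean of both probe sets Dlgap4 rose by 0.30 in WT (adjusted p = 0.00531) and by 0.27 in Fmr1 KO (adjusted p = 0.00509). In WT that mean was slightly below the 0.31 of Dlgap2.

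**Figure D3:**
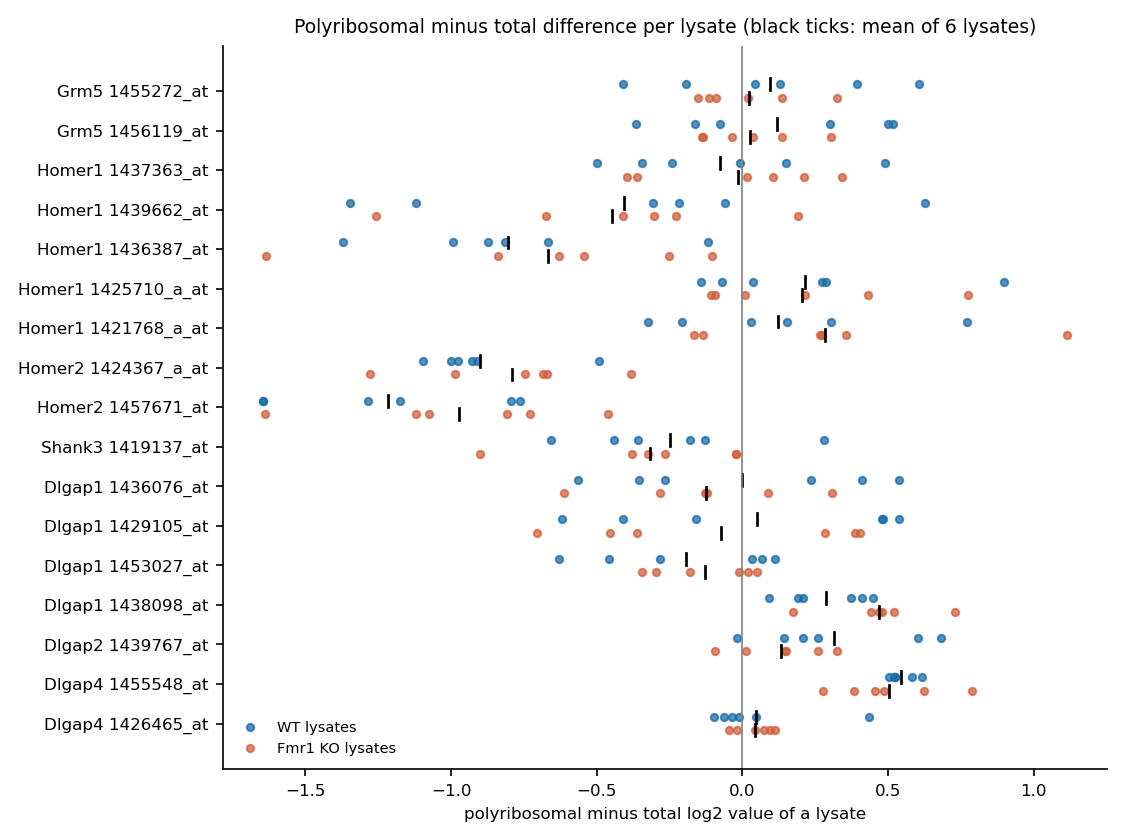
Polyribosomal minus total log2 difference of each lysate for the 17 probe sets tested, with WT in blue, Fmr1 KO in orange and black ticks at the mean of 6 lysates. Both Homer2 probe sets and 1436387_at of Homer1 lie below 0 in all lysates, 1455548_at of Dlgap4 and 1438098_at of Dlgap1 lie above it, and Homer1, Dlgap1 and Dlgap4 each hold probe sets with different means.

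Whether Fmr1 KO changed this distribution was asked by testing, over the 12 lysates, whether the polyribosomal minus total value depended on genotype. None of the 17 probe sets was called (limma adjusted p = 0.9991 for each) and 0 had an unadjusted p under 0.05. Of all 18544 probe sets tested, 0% were called in either direction and 442 had an unadjusted p under 0.05. The genotype differences ran from -0.18 for Dlgap2 (interval -0.46 to 0.10) to 0.25 for 1457671_at of Homer2 (interval -0.18 to 0.67).

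For Grm5 the difference was -0.07 (interval -0.41 to 0.26), for Homer1 0.06 (interval -0.31 to 0.43) and for Homer2 0.11 (interval -0.20 to 0.42). For Shank3 it was -0.07 (interval -0.43 to 0.29), for Dlgap1 -0.12 (interval -0.54 to 0.29) and for Dlgap4 -0.04 (interval -0.26 to 0.18). The interval of Dlgap4 was the narrowest of the 7 genes and that of Dlgap1 the widest. A change of the size that separates Homer2 in polyribosomal from Homer2 in total RNA lies outside all 7 intervals. Changes that fall inside the interval of a gene are not excluded for it.

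Polyribosomal arrays of a group differed more than total arrays. The median SD over 18544 probe sets was 0.138 in WT total, 0.141 in Fmr1 KO total, 0.228 in WT polyribosomal and 0.217 in Fmr1 KO polyribosomal RNA. Several members varied more than that in WT polyribosomal RNA. The SD was 0.60 for 1439662_at of Homer1, above that of 98.9% of probe sets, and 0.56 for 1429105_at of Dlgap1, above 98.4%. The brightest probe sets of Dlgap1 (SD 0.45) and Homer1 (SD 0.38) were above 94.4% and 88.3%. Dlgap4 had an SD of 0.15, above only 19.2%.

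The same lysates were high for the brightest probe sets of Homer1 and Dlgap1. In WT polyribosomal RNA, Homer1 stood at 9.79, 9.94, 10.35, 10.55, 10.10 and 9.50 in numbers 1 to 6 and Dlgap1 at 10.16, 10.23, 11.16, 10.86, 10.72 and 10.05. Numbers 3, 4 and 5 were the highest for each, as they were for 1439662_at of Homer1 and 1429105_at of Dlgap1. In Fmr1 KO polyribosomal RNA, Homer1 stood at 10.35, 9.81, 10.26, 9.88, 10.40 and 10.07 and Dlgap1 at 10.34, 9.92, 10.85, 10.12, 10.50 and 10.42. Numbers 2 and 4 were the lowest for each and for the same other probe sets. These probe sets were picked after their values were seen, and not all others of the 2 genes followed. In WT, 1421768_a_at of Homer1 and 1453027_at of Dlgap1 were also highest in numbers 3, 4 and 5. But 1436387_at of Homer1 stood at 6.58 in WT number 3, below its group mean of 6.96. In Fmr1 KO, 1438098_at of Dlgap1 was highest in number 2, at 5.25. The WT number 4 array was the one least like the rest of its group over all probe sets (mean r = 0.993), and so was the Fmr1 KO number 5 array (mean r = 0.993), and the part of this in the spread was not tested.

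**Figure D4:**
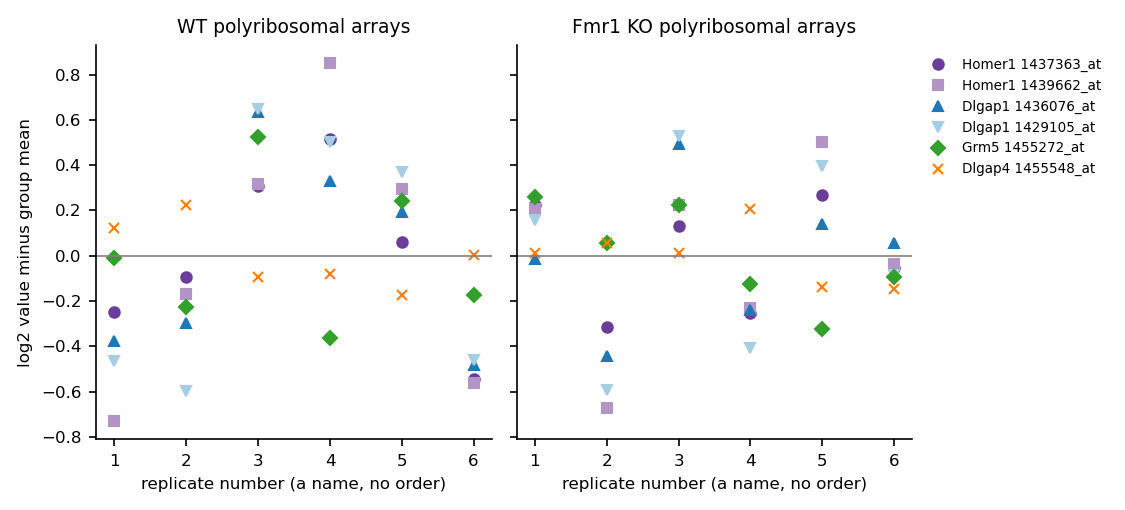
Log2 value minus the group mean in each polyribosomal array, by replicate number, for WT (left) and Fmr1 KO (right). Points are single arrays, the shapes are 6 probe sets, and the numbers are names with no order. The Homer1 and Dlgap1 probe sets shown are above their mean together in WT numbers 3, 4 and 5. They are below it in Fmr1 KO numbers 2 and 4, while Dlgap4 stays closer to its mean.

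By the mean absolute difference of polyribosomal minus total values over the 12 lysates, the genes nearest to Grm5 among 9954 were Ireb2 (0.116), Dzip3 (0.119) and Dcx (0.126). Those nearest to Homer1 were Mtf2 (0.107), Tigd2 (0.119) and Qk (0.123). The distances were smaller than the SD over WT lysates, 0.37 for Grm5 and 0.36 for Homer1. The genes were picked for a small distance, so its size shows no link between them. No such genes are given for Shank1, which was too dim.

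The other genes of the pathway fell into 3 lists. The list of group I mGluR coupling and second messengers had 18 genes tested, of which 8 were higher, 5 lower and 5 not called in polyribosomal RNA of WT, and 6, 4 and 8 in Fmr1 KO. Its furthest members were Grasp, a scaffold of group I receptors, which rose by 0.86 in WT and 0.64 in Fmr1 KO, and Ryr2, a calcium release channel, which fell by 1.13 and 1.11. Gna11, a Gq-family alpha subunit, rose by 0.47 and 0.44, and Plcb4, a phospholipase C, fell by 0.83 and 0.88. The median of the list was 0.15 in WT and 0.17 in Fmr1 KO, against 0.09 for all genes in each. Over all genes 37.5% were higher and 28.4% lower in WT, and 38.7% and 28.2% in Fmr1 KO.

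Genes between the receptor and the translation machinery numbered 19 tested, with 8 higher, 5 lower and 6 not called in WT, and 6, 7 and 6 in Fmr1 KO (medians 0.03 and 0.10), where 37.5% of all genes were higher and 28.4% lower in WT and 38.7% and 28.2% in Fmr1 KO. Map2k1, the MAP kinase kinase MEK1, rose by 0.87 and 0.90, and Eef2k, the kinase that inhibits elongation factor 2, rose by 0.86 and 0.80. Eif4ebp2, which encodes a protein that binds eIF4E and keeps eIF4G from it, fell by 1.23 and 1.14, and Pik3ca, a catalytic subunit of PI3 kinase, fell by 0.93 and 0.97.

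Binding partners of Homer, Shank and Dlgap numbered 28 tested, with 8 higher, 10 lower and 10 not called in WT, and 7, 10 and 11 in Fmr1 KO (medians -0.07 and -0.12), beside the same shares over all genes of 37.5% and 28.4% in WT and 38.7% and 28.2% in Fmr1 KO. Baiap2, which encodes the Shank-binding protein IRSp53, rose by 1.01 and 0.82, and Cttn, the actin-binding Shank partner cortactin, rose by 0.47 and 0.44. Dlg4, which encodes PSD-95, fell by 0.89 and 0.60, and Dynll2, a light chain that binds Dlgap1, fell by 0.56 and 0.57. Each of the 12 genes named from the lists for a large rise or fall passed in both genotypes (limma adjusted p of at most 0.00902). Dlgap3, also in this list, stood at -0.30 in WT (limma adjusted p = 0.0377) and did not pass in Fmr1 KO (-0.24, adjusted p = 0.0679).

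**Figure D5:**
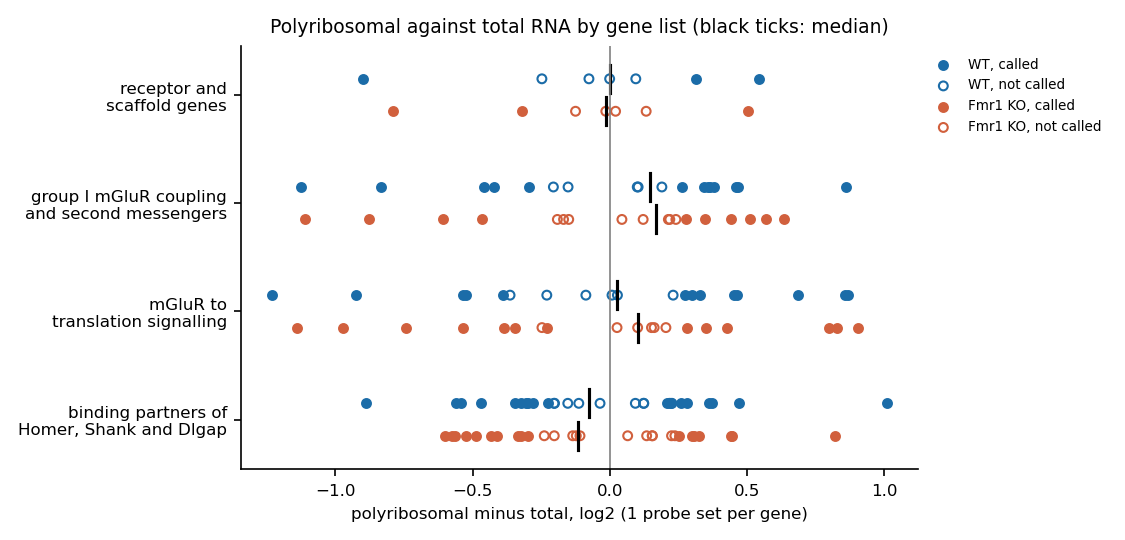
Polyribosomal minus total log2 difference of the 7 receptor and scaffold genes and of the 3 pathway lists, 1 probe set per gene. Filled points passed the test and open ones did not, WT is blue, Fmr1 KO is orange, and black ticks are medians. Every list holds genes on both sides of 0.

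Between genotypes none of the genes in these 3 lists was called, in polyribosomal RNA, in total RNA or in the difference between them (limma). The smallest p of each list, in the order above, belonged in polyribosomal RNA to Prkce at 0.23, Mknk2 at 0.23 and Sipa1l1 at -0.30, and in total RNA to Rgs4 at -0.18, Mtor at -0.18 and Kcnd2 at -0.15. Of these, Mtor, the kinase at the centre of mTOR signalling, had an unadjusted p = 0.00749 and an adjusted p = 0.8369. In the difference the smallest p of each list belonged to Grasp at -0.22, Tsc2 at -0.35 and Adgrl2 at -0.22. By list, in the order above, an unadjusted p under 0.05 was reached in polyribosomal RNA by 1 of 18, 0 of 19 and 2 of 28. In total RNA it was reached by 2 of 17, 2 of 19 and 2 of 28 genes. In the difference it was reached by 0 of 18, 1 of 19 and 1 of 28. Over all genes it was reached by 215 of 9664 in polyribosomal RNA, 489 of 9690 in total RNA and 233 of 9955 in the difference.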

How the data were processed

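RNA from 24 cortex samples was hybridised to Affymetrix Mouse 430 2.0 arrays. The values that the authors deposited are log2 values made with GCRMA, per the submitters' processing notes, a method that corrects background, normalizes arrays and summarizes probe sets. Its version is not given in the sources used here, nor is a genome build. Probe sets were named from the platform annotation, and chromosomes from the RefSeq annotation of GRCm38.p6.

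Probe sets were tested when 6 or more of the arrays compared had a log2 value of 4 or more. Linear models were fitted with limma 3.58.1 (R 4.3.3), using lmFit followed by eBayes. P-values are two-sided and were adjusted by Benjamini-Hochberg over every probe set tested, with a threshold of 0.05. Polyribosomal and total RNA were compared with the lysate as a block, which rests on the protocol and on matching arrays by replicate number. Residuals of same-numbered polyribosomal and total arrays correlated at 0.021 to 0.525 in WT, with 4 of 6 over 0.1. In Fmr1 KO they correlated at 0.156 to 0.474, with 6 of 6 over 0.1. The same number was the best match for 5 of 6 polyribosomal arrays in WT and 6 of 6 in Fmr1 KO. The genotype difference in polyribosomal minus total values was tested over 12 lysates. Gene-level counts use each gene's brightest probe set, by its mean in the 24 arrays. An exact permutation test was used for Fmr1. The fits were tested on simulated data. Python 3.11.15 with matplotlib 3.10.9 drew the figures.

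The genes named were all members, the 2 largest rises and falls in WT of each pathway list among genes called in both genotypes, the smallest p of each list in the genotype comparisons, and the 3 nearest genes of Grm5 and Homer1. Dlgap3 was named in addition. The members and lists were chosen with earlier results of these data known. The number of arrays limits the precision.

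Residuals of same-numbered WT and Fmr1 KO arrays correlated at 0.133 to 0.532 in total RNA, with 6 of 6 pairs over 0.1. The same number was the best match there for 4 of the 6 WT arrays. In polyribosomal RNA they correlated at -0.137 to 0.625, with 4 of 6 pairs over 0.1 and the same number the best match for 3. Whether the numbers pair the samples is thus not settled. The study used littermates, but the labels do not say that the number marks the litter. Alternatives were other filters, centring each array, another eBayes prior, the mean of a gene's probe sets, the replicate block, and leaving out each replicate number.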

Additional observations from a re-analysis of the deposited data

Results flagged for a closer look

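Over 102 groups of 6 values (levels in each group and lysate differences of the 17 probe sets tested), 4 had 1 value separated from the others by more than Dixon's 95% critical value of 0.625 of the group's range, and chance marks about 1 in 20 groups. In Fmr1 KO polyribosomal RNA, 1436387_at of Homer1 stood at a log2 value of 6.22 in number 2, below the other 5 arrays. The polyribosomal minus total difference of 1424367_a_at of Homer2 was -0.49 in WT number 4, closer to 0 than in the other WT lysates. Dlgap2 stood at 4.52 in WT total number 1, above the others. The difference of 1426465_at of Dlgap4 was 0.43 in WT number 2, and without it the WT mean was -0.03 in place of 0.05.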

How the results depend on the processing

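The number of the 7 genes called was 0 in both genotype comparisons and in the genotype difference of polyribosomal minus total values under every alternative run. For polyribosomal against total RNA, WT gave 2 to 4 called genes of the 7, while Fmr1 KO gave 2 to 3. Across the array, the main fit called 11697 of 17893 probe sets in WT and 11766 of 17854 in Fmr1 KO. Without number 6 it called 10131 of 17510 and 10296 of 17452. The counts of the 7 genes are therefore no trait of these genes. Homer2 and 1455548_at of Dlgap4 kept their calls wherever they were tested. With the replicate block none of the 17 probe sets was called between genotypes, although the unadjusted p of Dlgap2 in polyribosomal RNA was then 0.00106 (adjusted p = 0.9678), at a difference of -0.40. In the genotype comparisons the block changed no call of a member, while for polyribosomal against total RNA the Fmr1 KO call of Shank3 was lost with no replicate block (adjusted p = 0.0938). Across the array it moved the probe sets called in total RNA from 7 to 4. With 1 value per gene as the mean of its probe sets, 3 genes were called there, and leaving out a number left 2 to 4 probe sets. In polyribosomal RNA 3 probe sets were called, and 1 gene by such means.

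Values that kept their sign could also move, and with a number left out the polyribosomal genotype difference lay between -0.25 and -0.0788 for Grm5 (the latter without number 5) and between -0.28 and -0.0598 for Dlgap1 (the latter without number 4). Only uncalled values changed sign. For polyribosomal against total RNA, Dlgap1 became 0.0398 in WT with each array centred, and 0.0364 in WT and 0.0358 in Fmr1 KO as the mean of its probe sets, and Homer1 became 0.0007 in Fmr1 KO with each array centred. Leaving out each number gave, in the polyribosomal genotype comparison, -0.006 to 0.25 for Homer1 and -0.0654 to 0.0824 for Homer2, and in total RNA -0.0055 to 0.0581 for Homer1. For polyribosomal against total RNA in WT it gave -0.0076 to 0.20 for Grm5, -0.19 to 0.0086 for Homer1, -0.0089 to 0.21 for 1421768_a_at of Homer1, -0.11 to 0.11 for Dlgap1, -0.0454 to 0.19 for 1429105_at of Dlgap1 and -0.0318 to 0.074 for 1426465_at of Dlgap4. In Fmr1 KO it gave -0.0397 to 0.0558 for Grm5, -0.0274 to 0.0605 for 1456119_at of Grm5, -0.0855 to 0.0619 for Homer1 and -0.17 to 0.0523 for 1429105_at of Dlgap1. For the genotype difference of polyribosomal minus total values it gave -0.15 to 0.0061 for Grm5, -0.0286 to 0.25 for Homer1 and -0.24 to 0.0151 for Dlgap1. The cause was not tested. Homer3, Shank1 and the other dim probe sets are near the background of the array, which limits what can be said of them, and Dlgap2 is not tested when a value of at least 5 is asked for.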
